A study of Mus musculus with 2 samples.

Results

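Solute carriers, the membrane proteins that move ions, metals, sugars, amino acids, vitamins and other small molecules across the plasma membrane and organelle membranes, were described in the gastrocnemius, a large and mainly fast calf muscle. The genes were chosen by name and by measured values: a symbol beginning with Slc, without the mitochondrial carriers (Slc25) and without Slc2a4, Slc6a8, Slc16a1 and Slc16a3, and at least 5 reads summed over both libraries. This left 119 genes, of 173 with such a name and at least 1 read and of 14658 annotated genes with reads. The material came from male B6CASTF1/J mice, the first-generation hybrid of C57BL/6J and CAST/EiJ, at 2 months of age. There were 2 long-read libraries, replicate 1 and replicate 2, each from 2 µg of RNA with spike-in RNAs added, and they formed 1 group with no treatment or control. The labels number the males differently but give both the same donor identifier, so the spread between the libraries may be partly technical, and with no groups to compare no p-value was computed.

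Facilitative carriers let a substrate run down its gradient, secondary active carriers couple it to sodium, protons or another solute, and exchangers trade one solute for another. In muscle, carriers of this kind bring in glucose, fatty acids, amino acids and carnitine, return calcium, sodium, protons and chloride to their resting levels, supply the Golgi with nucleotide sugars for glycoproteins, and move metals between compartments. Some work only with a partner chain, as the light chains of the Slc7 family do with Slc3a2.

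Replicate 1 held 1107128 reads of annotated genes and replicate 2 held 1402875. Levels are given as CPM, reads per 1000000 reads of annotated genes. In a long-read library each read stands for 1 molecule, so the levels were not divided by transcript length. A gene with 0 reads could still have had a level of up to 3 reads, which is 2.71 CPM at the depth of replicate 1 and 2.14 CPM at that of replicate 2. Intervals cover counting error only.

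Several results turned on which exon a carrier transcript started or ended with. The coding ends of Slc44a2, a choline transporter-like protein, are shown because the 2 ends were about equally common. They lie on chromosome 9, plus strand, at 21353001 to 21353125 and 21353682 to 21353788 (mm10), and the stop codons are in capitals:
Slc44a2 inclusion end: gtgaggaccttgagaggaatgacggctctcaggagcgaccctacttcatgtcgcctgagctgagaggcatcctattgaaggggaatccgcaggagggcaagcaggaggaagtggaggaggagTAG
Slc44a2 skipping end: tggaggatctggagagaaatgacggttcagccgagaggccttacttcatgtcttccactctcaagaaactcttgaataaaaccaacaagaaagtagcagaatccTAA
Both were read 5′ to 3′ from the GENCODE M21 transcripts. The inclusion end had 125 bases with the stop codon and a GC content of 57.6%, and the skipping end had 107 bases and 43.0%.

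The same gene had a pair of annotated starts, which the reads used unequally. The 250 bases before each RefSeq start (GRCm38.p6) are shown, plus strand of chromosome 9. They lie at 21320469 to 21320718 for the upstream start and 21337578 to 21337827 for the downstream start:
Slc44a2 upstream promoter: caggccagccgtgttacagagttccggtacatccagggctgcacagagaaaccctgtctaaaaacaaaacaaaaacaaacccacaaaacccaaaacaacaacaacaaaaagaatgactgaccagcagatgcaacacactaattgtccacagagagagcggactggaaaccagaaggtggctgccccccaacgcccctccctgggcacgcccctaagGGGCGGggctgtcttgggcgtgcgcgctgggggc
Slc44a2 downstream promoter: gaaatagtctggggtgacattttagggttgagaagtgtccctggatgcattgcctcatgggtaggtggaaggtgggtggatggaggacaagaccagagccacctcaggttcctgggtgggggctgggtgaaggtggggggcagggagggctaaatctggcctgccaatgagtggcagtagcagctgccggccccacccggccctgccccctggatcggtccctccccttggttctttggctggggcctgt
Capitals mark a GC box, GGGCGG, searched on both strands. It was found 1 time in the upstream window and 0 times in the downstream one, and 32.7% of 32851 RefSeq promoter windows of this length held it. The TATA box letters TATAAA were in neither window and in 12.4% of all windows. The RefSeq upstream start is at 21320719, while the first exon of Slc44a2-210 in GENCODE M21 begins at 21320698. The end of the upstream window therefore lies inside that exon.

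The annotated coding start of Slc41a3-201, a transcript of a gene of the magnesium transporter family, is shown because the libraries differed in how often reads began with its exon. It lies on the plus strand of chromosome 6, at 90619451 to 90619645, with the start codon in capitals:
Slc41a3 annotated start: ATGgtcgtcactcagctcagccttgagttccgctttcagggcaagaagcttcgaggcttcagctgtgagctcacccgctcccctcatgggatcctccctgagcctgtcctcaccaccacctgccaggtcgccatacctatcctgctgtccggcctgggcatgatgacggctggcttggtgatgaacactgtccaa
The short end of Slc16a10, an aromatic amino acid transporter, is shown because it led in both libraries. Transcript Slc16a10-202 reads past the splice site that Slc16a10-201 uses, on the minus strand of chromosome 10 at 40076534 to 40076563, and meets a stop codon, in capitals, within 30 bases:
Slc16a10 short end: gtaagtatgcatctttggctctgtttgTAA

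The 119 carriers were a small part of the transcriptome and were led by a few genes of choline, zinc, magnesium, heme and nucleotide sugar transport. They held 3199 reads in replicate 1 and 4834 in replicate 2, or 2889 and 3446 CPM, a sum of 3168 ± 393 CPM (SD, n = 2). This was 0.289% and 0.345% of the reads of annotated genes. The excluded glucose transporter gene Slc2a4, whose product insulin brings to the fibre surface, had 416 CPM, and the lactate exporter gene Slc16a3 had 999.5 CPM, both above every carrier kept. The median carrier stood at 10.2 CPM. There were 8 carriers above 100 CPM, 27 between 20 and 50 CPM and 56 below 10 CPM, and the 10 most read genes held 47.1% of all carrier reads. At the read minimum, 7 genes had 5 reads and 10 had 6, at 1.88 to 2.61 CPM, while 9 genes just outside had 4 reads, at 1.43 to 1.71 CPM.

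**Figure D1:**
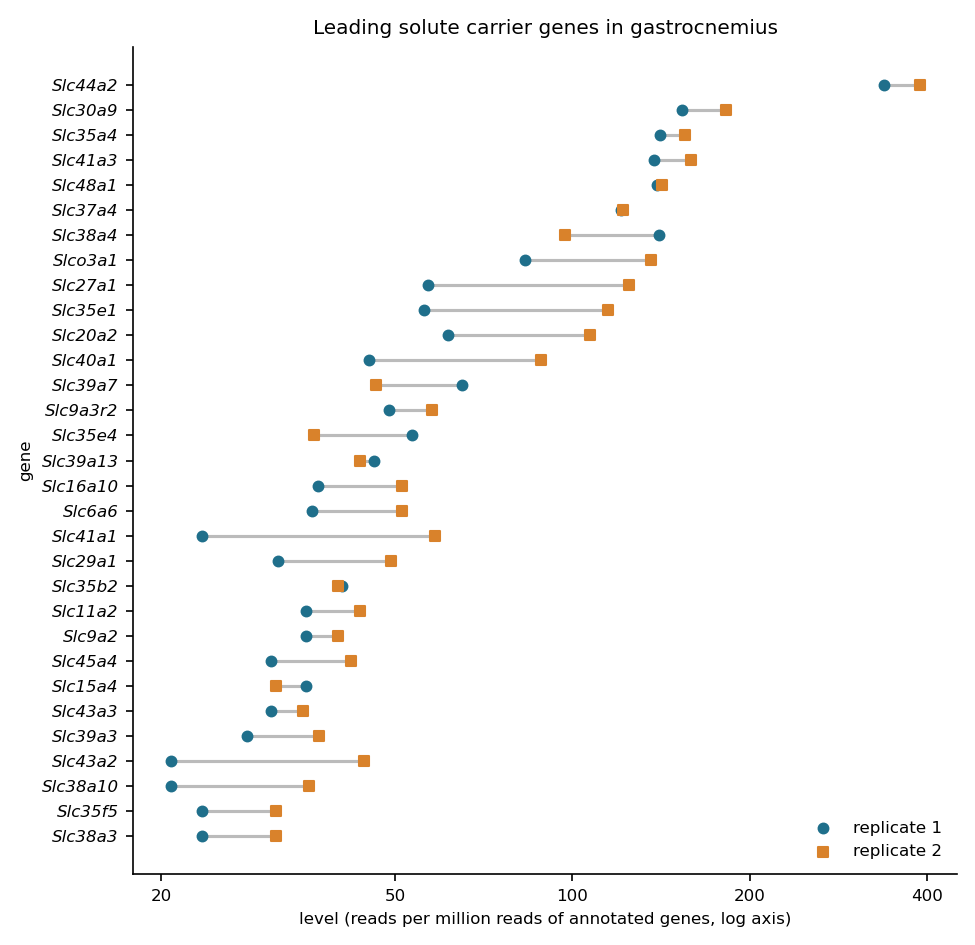
Level of each solute carrier gene ranked 1 to 30 by mean (31 genes with a tie), in CPM on a log axis; circles are replicate 1 and squares replicate 2, joined by a line. Slc44a2 stands apart at 338 and 388 CPM, while Slc41a1, Slc43a2, Slc27a1 and Slc35e1 have the longest lines, with replicate 2 the higher.

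Slc44a2 was the most abundant carrier, with 374 and 545 reads, which came to 338 and 388 CPM (363 ± 35.8, SD, n = 2). It held 11.4% of all carrier reads. The other choline carrier kept, Slc44a1, had 20.8 and 17.1 CPM. Vitamin carriers were low: the folate carrier Slc19a1 had 8.13 and 8.55 CPM, the riboflavin transporter Slc52a2 had 2.71 and 11.4, and the biotin and pantothenate transporter Slc5a6 had 5.42 and 9.27. Slc44a2 therefore made up 85.8% of the summed CPM of the vitamin and choline class.

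Among the genes selected, metal carriers formed the class with the highest mean sum when iron, copper, manganese, magnesium and heme were summed, 475 ± 84.7 CPM over 8 genes. Slc41a3 had 137 and 159 CPM. Slc48a1, which passes heme from endolysosomes to the cytosol, had 139 and 142 CPM, libraries that did not differ beyond counting error (ratio of replicate 2 to replicate 1 of 1.02, interval 0.822 to 1.27). Ferroportin, the cellular iron exporter encoded by Slc40a1, had 45.2 and 88.4 CPM, and the iron importer of endosomes, Slc11a2, had 35.2 and 43.5. The magnesium transporter Slc41a1 had 23.5 and 58.5 CPM, and the copper importer Slc31a1 had 19.9 and 32.1. The class order was not fixed, since in replicate 1 the nucleotide sugar class was first, at 421 against 415 CPM.

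Zinc carriers were more numerous, with 15 genes and 372 ± 27.0 CPM. The Slc30 family had 7 genes and 208 ± 26.8 CPM, of which Slc30a9 gave 80.9%. Most of its members move zinc out of the cytosol, but Slc30a9 is known for carrying zinc out of mitochondria. That gene had 154 and 182 CPM. The Slc39 family, which moves zinc into the cytosol, had 8 genes and 165 ± 0.193 CPM, spread more evenly. Slc39a7, which releases zinc from the endoplasmic reticulum, had 65.0 and 46.3 CPM, Slc39a13 had 46.1 and 43.5, and Slc39a3 had 28.0 and 37.1. Slc39a14, which also carries iron, was lower at 9.03 and 12.8 CPM.

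The Slc35 family, carriers of nucleotide sugars and related molecules in the Golgi and endoplasmic reticulum, had the highest sum of the families as selected, 446 ± 35.0 CPM over 13 of its 27 annotated coding genes. With the excluded genes put back, the Slc16 and Slc2 families came to 1064 and 469.9 CPM, above it. Slc35a4 had 141 and 155 CPM, but 17 and 44 of its reads were genomic, that is, reads that overlap the gene without matching its splice junctions. Slc35e1, whose substrate is not settled, had 56.0 and 115 CPM, and Slc35e4 had 53.3 and 36.4. Slc35b2, which brings the sulfate donor PAPS into the Golgi, had 40.6 and 39.9 CPM. The Slc35 family stayed first among the selected genes when the leading gene of every family was left out, at 298 CPM.

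Amino acid carriers were the class with the most genes, 18, and their sums were nearly equal, 405.6 and 406.3 CPM. Slc38a4, a sodium-coupled carrier of neutral amino acids, led with 140 and 96.9 CPM. Slc16a10 had 37.0 and 51.3 CPM, and the glutamine transporter Slc38a3 had 23.5 and 31.4. Slc43a3, placed here by family although it carries purine nucleobases, had 30.7 and 34.9 CPM. The branched-chain carrier Slc43a2 had 20.8 and 44.2 CPM, and Slc38a10 the same 20.8 in replicate 1 and 35.6 in replicate 2. Of the heterodimeric carriers, the heavy chain gene Slc3a2 had 27.1 and 22.8 CPM, while the light chain genes Slc7a8 and Slc7a5 had 23.5 and 9.27 CPM and 1.81 and 2.85 CPM. The system A carrier Slc38a2 had 13.5 and 25.7 CPM. The taurine transporter Slc6a6 stood in a class of its own kind with 36.1 and 51.3 CPM. Of the Slc6 family, 2 of 20 annotated coding genes were kept, not counting the excluded Slc6a8, which had 16.3 and 26.4 CPM.

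Among the sugar carriers kept, from which the selection had removed Slc2a4, the highest gene was Slc37a4. This carrier, which takes glucose 6-phosphate into the endoplasmic reticulum, had 121 and 122 CPM, a ratio of 1.01 (interval 0.799 to 1.27), and held 51.4% of the 236 ± 1.64 CPM of the class. Slc45a4 had 30.7 and 42.1 CPM and the intracellular hexose carrier Slc2a8 had 20.8 and 26.4. The glucose transporters Slc2a12, Slc2a3 and Slc2a1 had means of 13.8, 6.46 and 6.20 CPM, with SDs of 3.43, 1.08 and 2.72, all far below Slc2a4.

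Lipid fuel, phosphate and organic ion carriers were each led by 1 gene. The fatty acid transport protein gene Slc27a1 had 56.9 and 125 CPM, 93.2% of its class. The phosphate transporter Slc20a2 had 61.4 and 107 CPM, whereas the related Slc20a1 had 2.71 and 3.56. Slco3a1, an organic anion transporting polypeptide, had 83.1 and 136 CPM. The carnitine importer Slc22a5 had 16.3 and 24.2 CPM, and the equilibrative nucleoside transporter Slc29a1 had 31.6 and 49.2. Among partners, the fatty acid receptor gene Cd36 had 57.8 and 143 CPM, and the excluded monocarboxylate carriers' chaperone Bsg had 970 and 919.

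Carriers that restore ion gradients were each below 40 CPM. Of the sodium-proton exchangers, Slc9a2 had 35.2 and 39.9 CPM. The sodium-calcium exchanger of muscle Slc8a3 had 8.13 and 12.1 CPM, the mitochondrial exchanger Slc8b1 had 14.5 and 15, and Slc8a1 had 4 reads in each library, 4 and 2 of them genomic. The potassium-chloride cotransporter Slc12a4 had 17.2 and 33.5 CPM and the sodium-potassium-chloride cotransporter Slc12a2 had 18.1 and 30.7. The bicarbonate and anion exchangers Slc4a2, at 20.8 and 27.8 CPM, and Slc4a3, at 3.61 and 18.5 CPM, followed, and Slc4a4 had 2 and 5 reads, of which 2 and 3 were genomic.

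**Figure D2:**
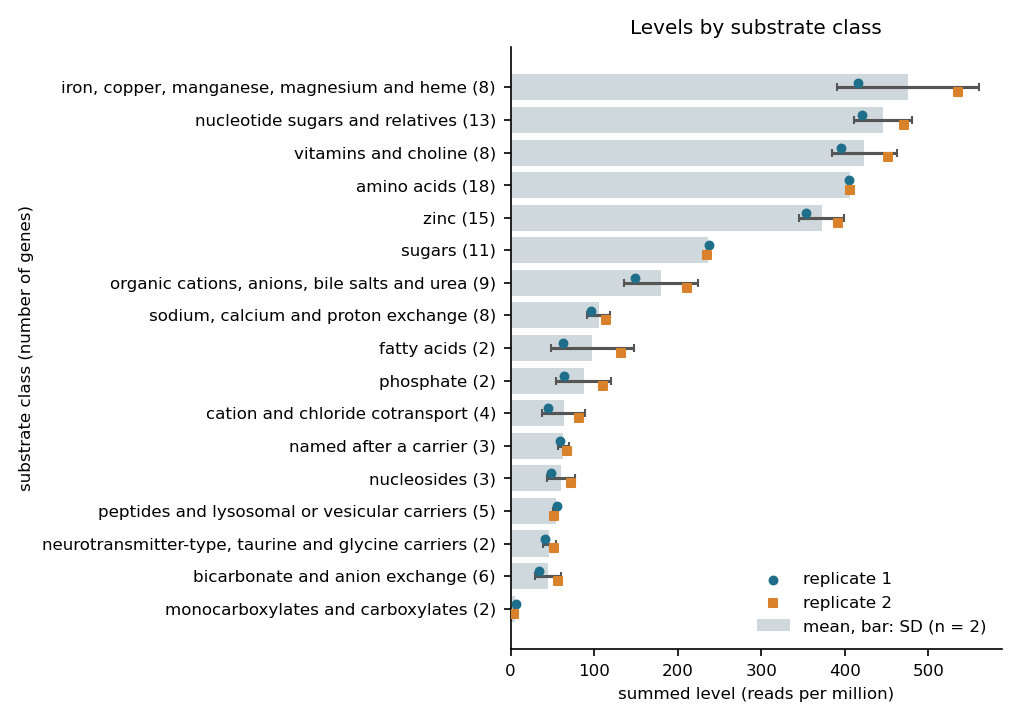
Summed level of the solute carrier genes of each substrate class in CPM, with the number of genes in brackets; grey bars are means with the SD (n = 2), circles replicate 1 and squares replicate 2. The first 5 classes lie between 372 and 475 CPM, and the other classes lie at 236 CPM or below.

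Some values are less certain than their counts. Of the 119 genes, 58 overlap another annotated gene, so their genomic reads in particular may belong to a neighbour. In 7 genes over 50% of the reads were genomic, and for 1 of them, the vesicular monoamine transporter gene Slc18a2, all 14 and 8 reads were. The cystine transporter gene Slc7a11 had 12 and 15 reads, of which 1 and 14 were genomic. The names also bring in 3 genes that are not carriers: Slc9a3r2, a scaffold protein of exchangers (48.8 and 57.7 CPM), Slc4a1ap and Slc7a6os. Among the other named families, 8 (Slc13, Slc14, Slc17, Slc24, Slc32, Slc34, Slc36 and Slc51) had annotated coding genes but none that reached 5 reads. In tissue RNA, fewer cells of a type and less RNA per cell cannot be told apart.

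Carriers tended to be higher in replicate 2, although the libraries stand for 1 sample each and the difference has no replicate check. Of 42 carriers with at least 50 summed reads, 33 were higher in replicate 2 (78.6%) and 9 lower, beside 61.4% higher among 4295 genes with as many reads. The log2 ratio, replicate 2 over 1, had a median of 0.40 in them and 0.11 in all 4295 genes. With median-ratio size factors every log2 ratio fell by 0.10, which left the carriers' median at 0.30. The interval of the ratio lay above 1 for 12 carriers and below 1 for 1, Slc38a4, at 0.692 (0.546 to 0.877). The same count was not made for all 4295 genes, so it does not set the carriers apart from them. Over 17 substrate classes, 14 had the higher sum in replicate 2, and sugars, monocarboxylates and the lysosomal and vesicular carriers had the lower.

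A ratio over 2 in favour of replicate 2 was found in 4 of the 42 carriers (9.52%), where the share among all genes was 3.98%, and in favour of replicate 1 in 0 of 42, where it was 0.536%. Slc41a1 gave 26 and 82 reads and so a ratio of 2.49 (1.58 to 4.03). For Slc27a1 the reads were 63 and 175, a ratio of 2.19 (1.63 to 2.97), for Slc43a2 they were 23 and 62, a ratio of 2.13 (1.30 to 3.60), and for Slc35e1 they were 62 and 161, a ratio of 2.05 (1.52 to 2.79). With median-ratio size factors Slc35e1 and Slc43a2 came to 1.91 and 1.98, under the limit of 2, and Slc35e1 also fell under it with TMM factors (1.93), with the deeper library thinned (1.87) and without genomic reads (1.9998). In annotated transcripts alone the ratio of Slc27a1 was 4.33. Below 50 reads, the anion exchanger Slc4a3, chosen after its values were seen, gave 4 and 26 reads and a ratio of 5.13 (1.78 to 20.2), and Slc7a8 gave 26 and 13 reads and a ratio of 0.395 (0.186 to 0.796).

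Fibre type markers moved between the same libraries. All 10 slow fibre markers examined were higher in replicate 2, with a summed level of 3025 CPM in replicate 1 and 9110 CPM in replicate 2. All 10 fast fibre markers were lower, with 257241 and 220339 CPM. Atp2a1, the highest of the fast markers, changed little, at 147454 and 144902 CPM, a log2 ratio of -0.025. Of 6 endothelial markers 5 were higher (56.9 and 79.1 CPM summed), and all 4 of the erythroid markers with enough reads were lower (171 and 110 CPM summed over 6). Of 6 fibroblast markers 3 were higher and 3 lower; Gsn had 2615 and 1314 CPM, and the other 5 summed to 572 and 643 CPM. No defining slow marker was at 0. The part of these differences in the carrier ratios was not tested.

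**Figure D3:**
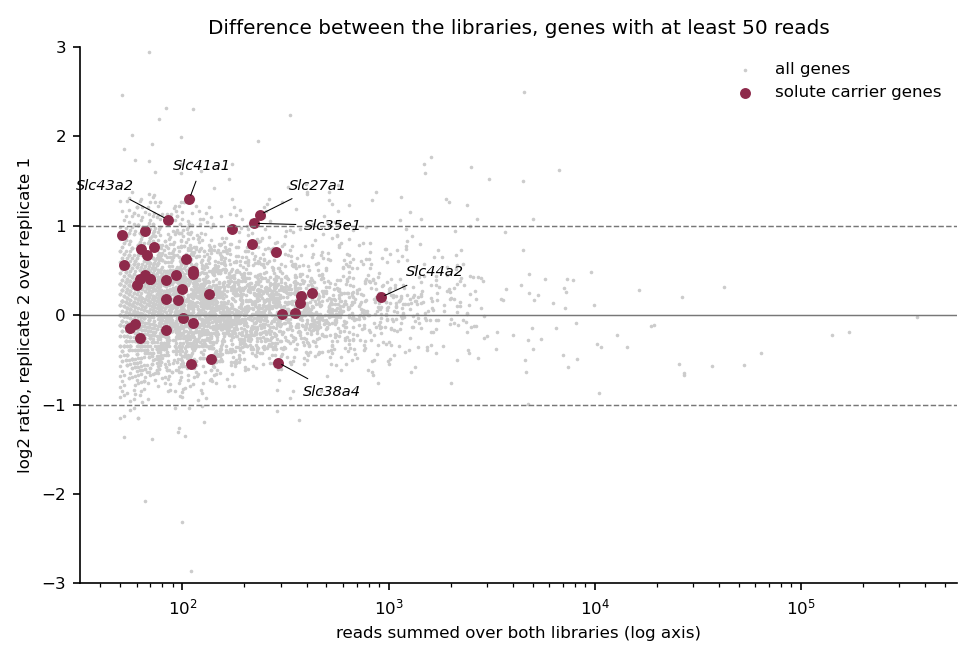
Each point is a gene with at least 50 reads summed over both libraries (log x axis) and its log2 ratio of replicate 2 over replicate 1; grey points are all 4295 genes, dark points the 42 solute carriers, and dashed lines a 2-fold difference. Of the dark points, 33 lie above 0 and 4 above the upper dashed line; 10 grey points beyond 3 in either direction are outside the axis.

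Pooled over genes, the share of reads in annotated transcripts was lower for carriers than for other genes in both libraries. The gap was larger than the counting intervals and was not tested. In replicate 1, 61.6% of carrier reads (Wilson interval 59.9 to 63.3) were in annotated transcripts, and in replicate 2 the share was 63.0% (61.6 to 64.4), a mean of 62.3% ± 0.989. Other annotated genes had 77.7% (77.6 to 77.8) and 76.6% (76.5 to 76.7), a mean of 77.2% ± 0.756. This leaves out the calcium pump gene Atp2a1, which supplies most of their reads classed as having an unannotated splice site. Chains that TALON, which assigned the reads, classed as new combinations of annotated splice sites held 15.6% ± 1.08 of carrier reads beside 4.60% ± 0.154. Those it classed as having an unannotated splice site held 7.16% ± 1.15 beside 3.78% ± 0.266. These labels were not exact. An Slc41a3 chain of 9 and 5 reads in the new-combination class held a splice site that GENCODE M21 lacks. With Atp2a1 counted, the other genes had 65.8% ± 0.510 of reads in annotated transcripts and 17.3% ± 0.151 in the unannotated-site class. For that class the direction was then the opposite. Genomic reads held 6.39% ± 0.165 of carrier reads and 3.10% ± 0.567 of the others without Atp2a1. Incomplete splice matches, which follow part of an annotated chain, were 8.56% ± 0.757 of carrier reads and 11.4% ± 0.231 of the others. All these shares pool reads, so genes with many reads weigh most. Slc44a2 alone gave 180 of the 474 carrier reads of the new-combination class in replicate 1, and 252 of 790 in replicate 2. Slc41a3 gave 82 of 255 and 71 of 307 carrier reads of the unannotated-site class. Whether carriers differ from other genes when each gene counts equally was not tested.

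The shares differed widely from gene to gene. Among 36 carriers with at least 20 non-genomic reads in each library, 25 had over 50% of their reads in annotated transcripts in both libraries. In 6 the share was under 50% in both. The same counts were not made for other genes, so they do not set the carriers apart. Slc48a1, Slc35e4, Slc31a1 and Slc3a2 were above 90% in both, with 91.6% and 91.5% for Slc48a1. At the other end Slc45a4 had 0 of 34 and 0 of 59 reads in annotated transcripts, and Slc27a1 had 11.1% and 21.7%. Slc29a1 had 22.9% and 29.0%, Slc35c2, a relative of the GDP-fucose carrier, 37.0% and 34.4%, Slc44a2 42.8% and 44.2%, and Slc11a2 48.7% and 44.3%.

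**Figure D4:**
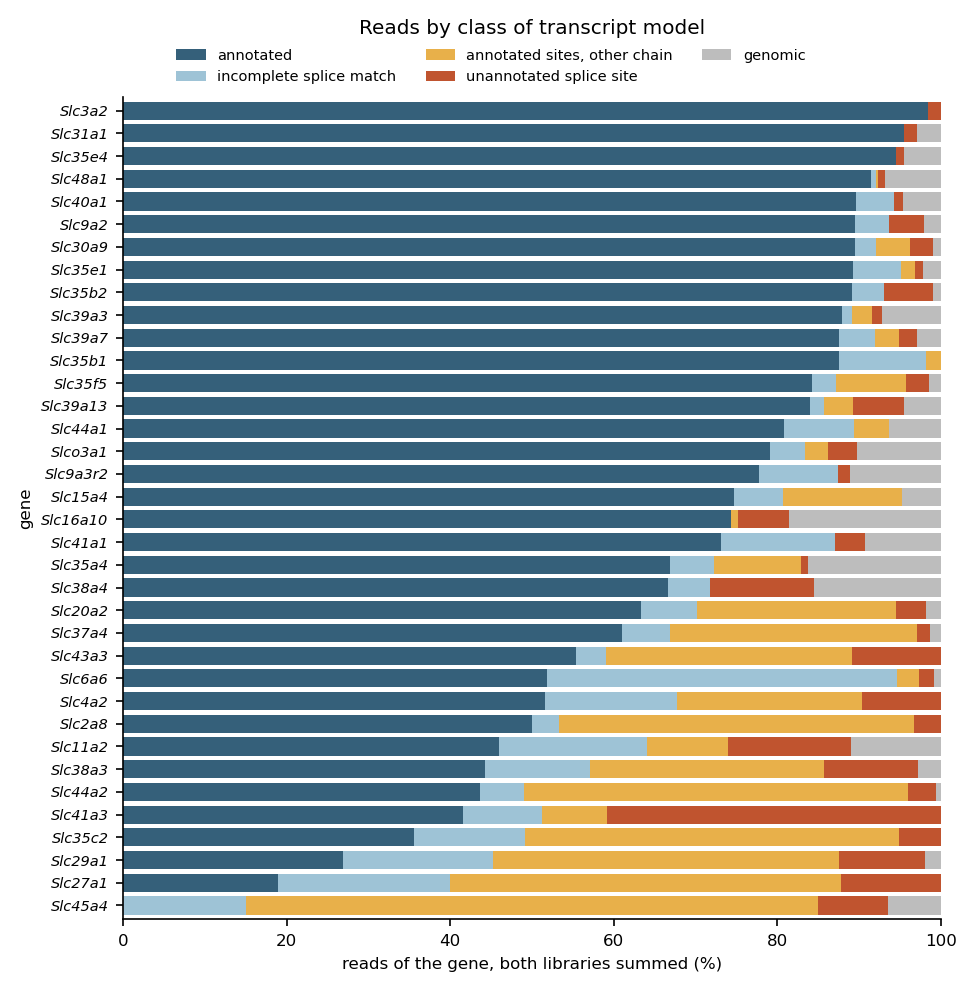
Share of each gene's reads by class of transcript model, both libraries summed, for the 36 solute carriers with at least 20 non-genomic reads in each library, ordered by the annotated share. The dark blue annotated part runs from over 90% at the top, in Slc3a2, to 0 at the bottom, in Slc45a4, where chains of annotated sites take most reads.

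The leading model, the one with the most reads, was the same in both libraries for 33 of these 36 carriers (91.7%, Wilson interval 78.2 to 97.1), and for 93.8% of 4077 other genes. It held a median of 63.8% of a carrier's non-genomic reads, against 82.0% in the other genes. In replicate 1 the leading models were 1353 to 7359 bases long, with a median of 2817. Slc31a1, Slc35e4 and Slc48a1 were nearly single-model genes: Slc48a1-201, with 3 exons, took 97.2% and 98.9% of non-genomic reads. In Slc40a1 the 8-exon model Slc40a1-201 took 93.9% and 94.0% of non-genomic reads.

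For 3 carriers the leading model differed. In Slc29a1 no model passed 17.9% in either library: Slc29a1-204 led replicate 1 with 6 of 35 non-genomic reads and an unannotated chain led replicate 2 with 12 of 67. Slc35b1, an ATP carrier of the endoplasmic reticulum, was led by Slc35b1-201 with 17 of 26 non-genomic reads and by Slc35b1-202 with 15 of 30. Slc35b1-201 is annotated as protein coding with 322 codons. Slc35b1-202 is annotated as subject to nonsense-mediated decay, with 156 codons. Whether the shares of these 2 transcripts differed between the libraries was not tested. Slc41a3 is described with its starts.

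Unannotated chains recurred between the libraries. Of 535 such chains in the carriers, 100 were present in both libraries, in 46 genes, and these held 71.0% of the chain reads. With at least 2 reads in each library 45 remained, and with at least 5, 17. The same count was not made for other genes, so it does not set the carriers apart from them. All splice sites were annotated in 56 of the 100, and 44 had at least 1 unannotated site.

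Slc44a2 supplied the most read of these chains. Of the reads that span the end of the gene, 49.4% of 362 (44.3 to 54.6) and 46.1% of 534 (41.9 to 50.3) included an exon before the last one, and 48.6% (43.5 to 53.8) and 50.6% (46.3 to 54.8) skipped it. The exon was used in a long form of 172 bases (chromosome 9, 21353001 to 21353172; 29.0% and 26.8% of reads) and a short form of 128 bases (to 21353128; 20.4% and 19.3%). Both forms hold the 122 coding bases and the stop codon of the inclusion end printed above, so they differ after the stop codon. The exon is annotated in Slc44a2-203 and Slc44a2-205, yet the chains from the main start through it, with 89 and 125 reads for the long form and 65 and 90 for the short form, matched no annotated transcript. The leading annotated transcript, Slc44a2-201, skips the exon and had 138 and 211 reads. The intervals of the libraries overlapped for every form.

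The starts of Slc44a2 were used unequally, in similar proportions in both libraries. The downstream first exon, ending at 21337962, gave 88.2% (84.4 to 91.1) and 89.1% (86.2 to 91.5) of reads that reach the start. The upstream one, ending at 21320851, gave 10.7% (7.90 to 14.4) and 10.3% (7.97 to 13.2). Inclusion of the exon before the last was 50.8% (45.3 to 56.3) and 47.8% (43.3 to 52.4) in reads from the downstream start. From the upstream start it was 42.1% (27.9 to 57.8) of 38 reads and 33.3% (22.2 to 46.6) of 54 reads, intervals that overlap those of the downstream start.

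Slc41a3 differed between the libraries in its first exon. A first exon at 90602001 to 90602121 on chromosome 6, which the annotation does not hold, gave 65.7% (57.4 to 73.1) of 137 reads and, in replicate 2, 36.0% (29.7 to 42.8) of 203. The annotated first exon of Slc41a3-201, at 90619147 to 90619645, gave 29.9% (22.9 to 38.1) and 62.6% (55.7 to 68.9). The intervals did not overlap, while the level of the gene differed little, with 152 and 223 reads and a ratio of 1.16 (0.938 to 1.43). From the unannotated exon the leading chain, with 74 and 64 reads, joined the second exon of Slc41a3-202. It so left out the exon with the start codon of Slc41a3-201 printed above. That second exon holds the annotated coding start of Slc41a3-202, with coding bases from 90611909 to 90612181. The annotated coding part has 488 codons in Slc41a3-202 and 462 in Slc41a3-201. With models of at least 5 reads only, a choice made after seeing the data, the shares were 66.9% and 37.1%.

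For the share of the leading first splice site, intervals were apart in 2 of 33 carriers, Slc41a3 and Slc27a1. Among 3688 genes with as many reads this held for 1.19%. Lower-ranked sites were not in this count. Besides the unannotated exon of Slc41a3, lower-ranked sites of Slc29a1 and Slc27a1 were also apart. That of Slc29a1, at 45599473 on chromosome 17, had 26.7% (14.2 to 44.4) of 30 reads and 1.89% (0.334 to 9.94) of 53. That of Slc27a1, at 71569841 on chromosome 8, had 17.8% (9.29 to 31.3) of 45 reads and 1.40% (0.384 to 4.96) of 143. In Slc27a1 the leading first splice site, at 71569023 on chromosome 8, gave 37.8% (25.1 to 52.4) of 45 reads and 69.2% (61.2 to 76.2) of 143. Its leading chain, with 7 and 39 reads, was closest to Slc27a1-201 but held 1 intron that the annotation lacks. For the leading last splice site 0 of 36 carriers had separate intervals, beside 0.284% of 3879 genes. A second first site with at least 20% of reads was seen in 7 of 33 carriers (21.2%), against 7.57% of all genes.

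Other carriers mixed their starts or ends in both libraries. Slc20a2 had a second first exon ending at 22506654 on chromosome 8, with 16.4% (9.16 to 27.6) and 29.4% (22.4 to 37.6) of reads. Slc38a4 had an unannotated first exon at 97054892 to 97055240 on chromosome 15, minus strand, with 11.9% (7.20 to 18.9) and 11.5% (6.85 to 18.7). Slc45a4 was led in both libraries by an unannotated chain, with 23 of 32 and 40 of 55 non-genomic reads. The chain began with the first exon of Slc45a4-203, at 73645494 to 73645762 on chromosome 15, minus strand. Each of its introns was annotated, but no annotated transcript combined them. In Slc3a2 the second first site, at 8713342 on chromosome 19, gave 9 of 30 reads (16.7 to 47.9%) and 43.8% (28.2 to 60.7).

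At the 3′ side, Slc35a4 used a pair of last splice sites on chromosome 18 in equal measure, at 36681528 with 48.9% (40.8 to 57.1) and 51.1% (43.8 to 58.5) and at 36681874 with 49.6% (41.5 to 57.8) and 48.9% (41.5 to 56.2). Slc16a10 ended in the extended exon of the 3-exon Slc16a10-202 in 18 of 36 reads (34.5 to 65.5%) and 64.3% (51.2 to 75.5) of 56, and in the last exon of Slc16a10-201, at 40033532 to 40037404, in 44.4% (29.5 to 60.4) and 28.6% (18.4 to 41.5). The 30 bases printed above end the coding part of the first of these. Slc11a2 was divided among 3 last sites, with 16, 10 and 6 of 32 reads and 18, 16 and 16 of 50 reads, 1 of them, at 100388480, unannotated.

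**Figure D5:**
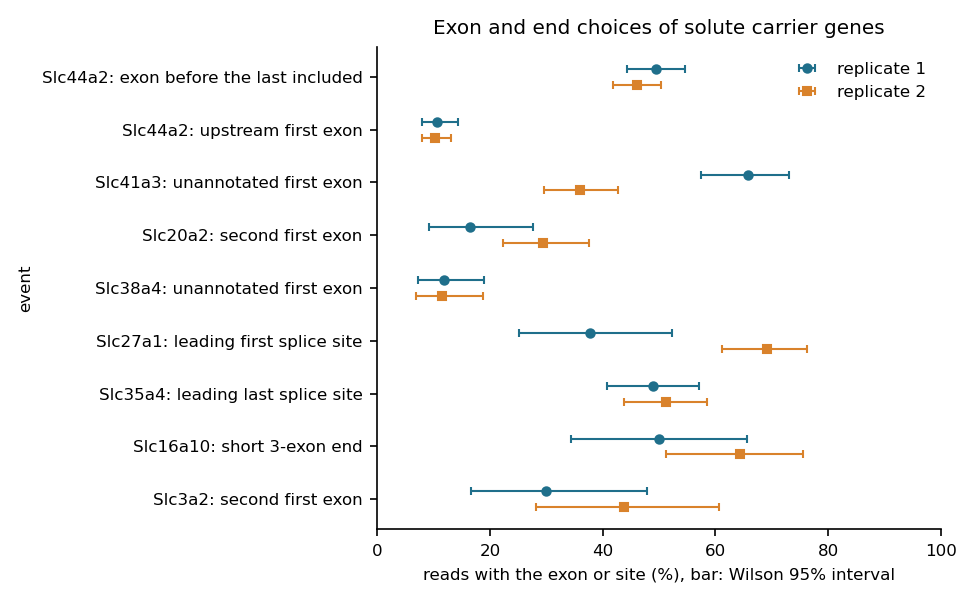
Share of reads, in percent with Wilson 95% intervals, that use the named exon or splice site in replicate 1 (circles) and replicate 2 (squares). The intervals are apart for the first exon of Slc41a3, 65.7% and 36.0%, and the leading first site of Slc27a1, 37.8% and 69.2%, and overlap for the other 7 events.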

How the data were processed

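Long reads were placed on mm10 and given to transcripts of GENCODE M21, or to models outside it, by TALON, separately for each library, per the file headers and deposited notes. Whole read counts per model were deposited, not normalised. No source used here names the aligner, the tool versions or the filters. Short exons can be missed in alignment, a truncated molecule counts as an incomplete splice match, and a read from overlapping or near-identical genes can be given to either.

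Counts were summed per annotated gene and divided by the reads of annotated genes; ERCC spike-ins (4.23% and 2.13% of 1182747 and 1480977 reads) stayed out. The same chromosome, strand and introns defined a shared unannotated chain. Ratios had exact conditional binomial 95% intervals, log2 ratios a prior count of 0.5, and shares Wilson 95% intervals. First and last splice sites were scored where each library had 20 or more reads, leaving out genomic reads and chains that lack that end. The counts of the 119 genes differed by 2.08 chi-square units per degree of freedom, more than sampling noise, so the libraries were counted separately. Named genes were those ranked 1 to 30 by mean CPM, leading genes of families and classes, those over 2-fold apart with at least 50 reads, those with the lowest annotated share or a differing leading model, the 10 most read shared chains and a muscle list; some were left out for length, and others were added after their values were seen. The genes, classes and lists were chosen with earlier results of these data known. Python 3.11.15, pandas 2.3.3, scipy 1.17.1 and, for TMM factors, edgeR 4.0.16 were used, and ratio code was tested on simulated data. A few items are not reported here. Alternatives covered scaling, read minimums, model classes, thinning and leaving out each library.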

Additional observations from a re-analysis of the deposited data

How the results depend on the processing

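The number of genes kept was within 1.5 times the 119 reported under every alternative tried except a minimum of 20 summed reads, which left 72, and it ranged from 89 to 96 without 1 of the libraries. The summed level was 2889 to 3446 CPM without 1 library and 3709 CPM with Atp2a1 out of the total. Carriers over 2-fold higher in replicate 2 numbered 2 with median-ratio size factors, a setting that shifts all ratios. With a minimum of 20 summed reads, a setting that adds genes of few reads, 7 of 72 were higher in replicate 2. At that minimum 2 were higher in replicate 1. The share among all genes was not computed at these settings. The annotated share was 66.6% without genomic reads, 69.8% as a median over carriers with 20 reads in each library, and 61.6% to 63.0% without 1 library. The Slc35 sum was 536 CPM in annotated transcripts and 298 CPM without its leading gene, first among the families as selected in each case, and 421 to 470 CPM without 1 library. The metal class came to 327 CPM without leading genes and 415 to 535 CPM without 1 library; it was second to the nucleotide sugar class in annotated transcripts and in replicate 1. Shared unannotated chains fell to 45 with at least 2 reads in each library and 17 with at least 5. Among genes named singly, the ratio of Slc27a1 rose to 4.33 in annotated transcripts, which hold few of its reads. Depth limits the 56 carriers below 10 CPM most, and each library is 1 sample.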
